A study of Mus musculus with 6 samples.

Results

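Dendritic cells take up antigen in tissues and present it to T cells, and 10 genes that mark their subsets and their maturation were followed in mouse tongue tumours. The genes were chosen by symbol: Flt3, Zbtb46 and Itgax for conventional dendritic cells in general, Xcr1, Clec9a, Wdfy4 and Batf3 for the type 1 subset, Cd209a for the type 2 subset, Siglech for plasmacytoid cells and Fscn1 for mature cells. All 10 were among the 18437 genes listed. The tumours grew in C57BL/6 mice after injection into the tongue of 4MOSC1 cells, which derive from a murine oral squamous cell carcinoma. One group received 4MOSC1-LIGHT cells, which overexpress LIGHT, a ligand of the TNF superfamily and the product of Tnfsf14, and the other received 4MOSC1-con cells (3 libraries each). RNA came from whole tumour tissue, so fewer cells of a type and less RNA per cell cannot be told apart.

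Conventional type 1 dendritic cells are known for presenting antigen from dead cells to CD8 T cells, and type 2 cells mainly for presenting to CD4 T cells. Plasmacytoid cells are known for type I interferon. On maturation, conventional cells switch on Ccr7 and costimulatory molecules and move towards T cell areas of lymphoid tissue, the arrangement that tertiary lymphoid structures, the subject of the study's title, resemble. The receptor tyrosine kinase Flt3 and its ligand Flt3l sustain the development of conventional and plasmacytoid cells.

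A start site of each of the 10 genes was matched in RefSeq (GRCm38.p6), and the 250 bases before it were searched on both strands. The windows of Zbtb46 (181424389 to 181424638) and Wdfy4 (33185067 to 33185316) lay inside the gene spans given below. Those of Itgax and Siglech ran past the first base of the gene span. The ETS core GGAAGT is the core of sites for ETS factors such as PU.1. It was found in the windows of 7 of the 10 genes (Batf3, Cd209a, Flt3, Itgax, Siglech, Wdfy4 and Xcr1) and in 19.7% of all 32851 windows of that length. The AP-1 type motif TGANTCA was found in the windows of Itgax and Zbtb46 and in 6.75% of all windows. Motifs of the interferon-response type and of the NF-kB type were in none of the 10, and in 2.98% and 4.65% of windows. The motifs do not overlap in the sequences shown. A match describes letters and is no evidence of binding. Itgax is shown because its difference was the firmest, and Xcr1 and Clec9a because they are the surface receptors that define the type 1 subset; capitals mark the ETS and AP-1 matches, and sequences run 5′ to 3′ on the gene's strand.
Itgax (chr7:128129300-128129549, + strand): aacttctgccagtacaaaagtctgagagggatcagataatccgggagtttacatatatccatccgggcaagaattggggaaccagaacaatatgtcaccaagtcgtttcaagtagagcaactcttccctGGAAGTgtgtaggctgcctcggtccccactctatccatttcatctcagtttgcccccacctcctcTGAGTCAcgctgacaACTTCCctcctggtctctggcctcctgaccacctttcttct
Xcr1 (chr9:123862030-123862279, - strand): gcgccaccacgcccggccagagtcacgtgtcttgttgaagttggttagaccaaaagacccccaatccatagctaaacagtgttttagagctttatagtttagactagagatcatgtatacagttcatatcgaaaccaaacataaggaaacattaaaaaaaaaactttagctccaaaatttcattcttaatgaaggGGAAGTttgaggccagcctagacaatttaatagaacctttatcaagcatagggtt
Clec9a (chr6:129408612-129408861, + strand): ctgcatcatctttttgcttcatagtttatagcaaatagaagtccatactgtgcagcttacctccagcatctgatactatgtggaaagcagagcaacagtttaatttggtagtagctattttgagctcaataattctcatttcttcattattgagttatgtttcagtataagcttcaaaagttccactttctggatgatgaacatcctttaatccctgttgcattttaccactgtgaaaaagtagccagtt
The Itgax window held 2 ETS cores with an AP-1 match between them, the Xcr1 window held 1 ETS core, and the Clec9a window held no match.

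Expression was given in TPM, each gene's part of all transcripts after correction for length, so levels of different genes can be set side by side, but the number of reads behind each value is unknown. The overexpressed gene, Tnfsf14, was at 26.24, 25.91 and 23.87 TPM in the LIGHT libraries, against 0.66, 0.53 and 0.79 TPM in the control libraries. Ptprc, which encodes the general leukocyte surface protein CD45, averaged 25.8 ± 2.24 TPM in LIGHT and 13.8 ± 2.51 TPM in control tumours (SD, n = 3 each). Red cell transcripts varied widely between libraries: 5 haemoglobin and haem genes summed to 119.0 to 2086 TPM in LIGHT and 70.0 to 453 TPM in control tumours, lowest in replicate 1 of each group. Over the 13167 genes that reached 1 TPM in at least 3 libraries, limma on log2(TPM + 1) called 2325 higher and 712 lower at an adjusted p under 0.05 (17.7% and 5.41%). Without LIGHT replicate 3 and without control replicate 3 the higher calls numbered 1264 and 1289. The lower calls were 371 and 325 without LIGHT replicates 2 and 3, and 422, 394 and 433 without control replicates 1, 2 and 3. The split was 1626 and 2005 after trimmed-mean scaling, which shifted the median log2 fold change of all genes by -0.12, and 1410 and 1813 after quantile normalization.

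Only Itgax, Batf3 and Fscn1 passed that filter. The other 7 genes lay at or near 1 TPM or below, and were therefore taken from the same fit run on all 18218 genes above 0 in any library, where 12.1% of genes were called higher and 3.22% lower. There 5 of the 10 genes were called higher and 0 lower: Itgax, Flt3, Xcr1, Clec9a and Wdfy4. Among the 5051 genes that failed the filter, 5.72% were called higher and 0.812% lower, against 4 and 0 of the 7 genes here. In all 5 called genes every LIGHT library lay above every control library, as it did in 25.5% of all genes above 0, 29.6% of genes that passed the filter (1 of 3 here) and 15% of those that failed it (4 of 7 here). In 0 of the 10 did every LIGHT library lie below every control library, beside 9.1% of all genes above 0, 11.6% of genes that passed the filter and 2.63% of those that failed it. The other 5 genes overlapped between the groups. With the skeletal muscle genes as a covariate 0 of the 10 were called in that fit, with the haemoglobin genes 2, and with either other scaling 3. The count was 3 without control replicate 1 or 2 and 2 without control replicate 3. The median log2 fold change was 0.47 over the 10 genes and 0.06 over all genes above 0.

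**Figure D1:**
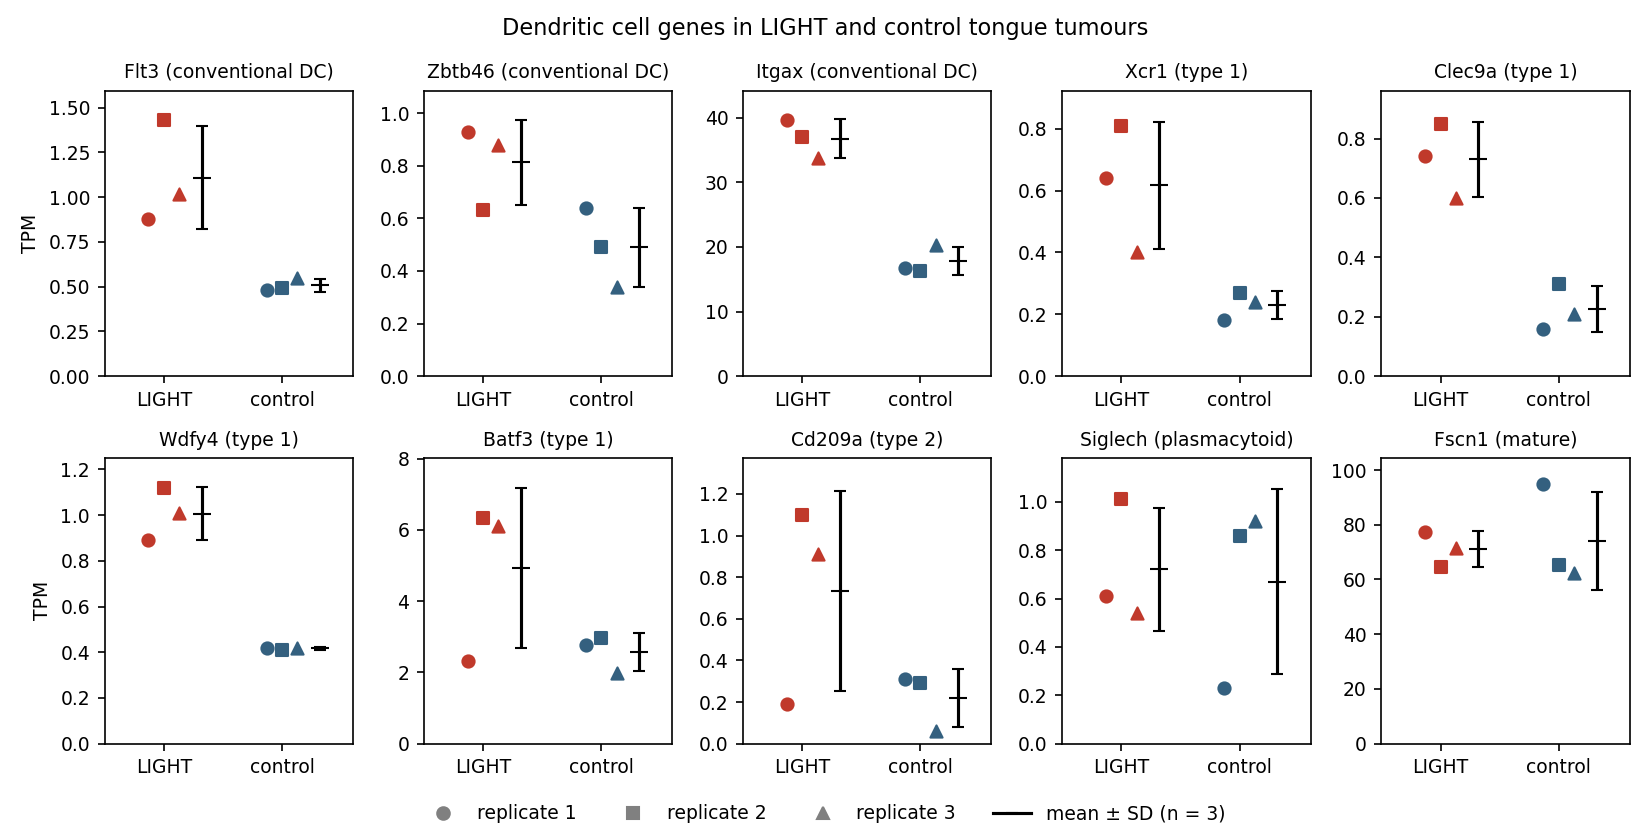
TPM of each of the 10 dendritic cell genes in every library, LIGHT left and control right, with the mean ± SD of 3 libraries; each panel has its own linear axis from 0. The groups separate for Flt3, Itgax, Xcr1, Clec9a and Wdfy4 and overlap for the other 5.

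**Figure D2:**
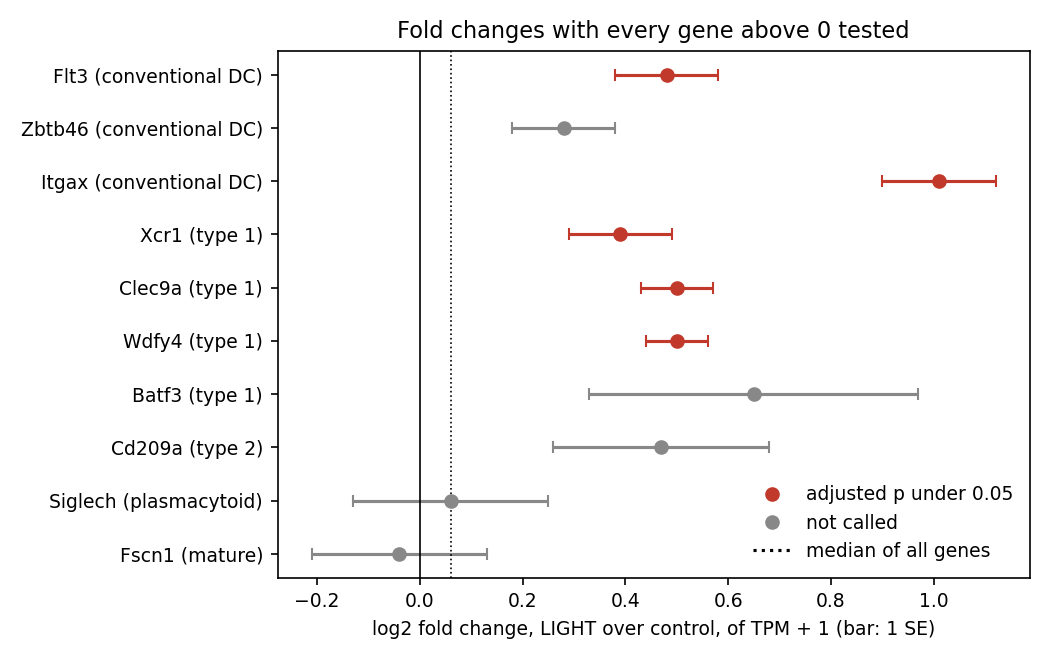
Log2 fold change of TPM + 1, LIGHT over control, with 1 SE, from limma on every gene above 0; the dotted line is the median of all genes (0.06). Itgax is farthest from 0 at 1.01, and Fscn1 (-0.04) and Siglech (0.06) lie beside 0.

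Of the genes shared by conventional dendritic cells, Itgax, the alpha chain of the integrin CD11c, was the most abundant that rose. Itgax (chromosome 7, 128129526 to 128150657) was at 39.61, 36.92 and 33.69 TPM in the LIGHT libraries, against 16.73, 16.33 and 20.22 TPM in the control libraries. The lowest LIGHT library was above the highest control library. The mean was 2.07-fold that of control tumours, and limma gave a difference of 1.01 on the log2 scale (SE 0.11) at an adjusted p of 0.00197, and it was called in the 17 other settings that changed 1 choice. It was not called on all genes above 0 with the skeletal muscle covariate, where 0 of the 10 genes were. CD11c is also carried by many macrophages and some natural killer cells.

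Flt3 (chromosome 5, 147330741 to 147400489) was at 0.88, 1.43 and 1.02 TPM in LIGHT tumours, against 0.48, 0.49 and 0.55 TPM in control tumours. The groups did not overlap, although LIGHT replicate 1 was nearer to the control libraries than the other two. The mean was 2.19-fold higher, and limma gave a difference of 0.48 on the log2 scale (SE 0.10) at an adjusted p of 0.0269. The call was lost without LIGHT replicate 3 or any 1 control library (adjusted p from 0.0872 to 0.0920) and after trimmed-mean scaling (0.0507) or quantile normalization (0.127). It was also lost with the replicate block (0.0533) and with the skeletal muscle (0.235) or haemoglobin covariate (0.122).

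Zbtb46, a transcription factor of the conventional lineage that endothelial cells also express, was at 0.93, 0.63 and 0.88 TPM in LIGHT tumours, against 0.64, 0.49 and 0.34 TPM in control tumours. Here LIGHT replicate 2 lay just inside the control range. The log2 fold change was 0.28 (SE 0.10) and missed the threshold (limma adjusted p = 0.106). Zbtb46 (chromosome 2, 181371009 to 181493262) overlaps Lime1 and Zgpat, which were at 23.7 and 17.2 TPM in LIGHT and 13.8 and 15.1 TPM in control tumours; the sources used here do not say whether strand was used in counting. The 10 endothelial markers summed to 90.8 to 172 TPM in LIGHT and 51.5 to 99.7 TPM in control tumours. Of the 10, 2 (Vwf and Cldn5) were called higher, near the share of all genes tested with the filter (17.7%). The part of endothelial cells in the Zbtb46 values was not tested.

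Of the 4 type 1 genes, Clec9a, Wdfy4 and Xcr1 were called higher, all from the fit on all genes above 0. Clec9a, the receptor for actin exposed on dead cells, was at 0.74, 0.85 and 0.60 TPM in LIGHT tumours, against 0.16, 0.31 and 0.21 TPM in control tumours. All LIGHT values were well clear of the control values, and the mean was 3.22-fold higher. The difference on the log2 scale was 0.50 (SE 0.07), at a limma adjusted p of 0.0110. The call was lost on leaving out control replicate 3 (adjusted p = 0.0549) and with the skeletal muscle (0.0916) or haemoglobin covariate (0.0653). Clec9a (chromosome 6, 129408862 to 129424764) overlaps Clec12b, which did not exceed 0.15 TPM in any library.

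Wdfy4, a BEACH-domain protein needed in mice for presentation of cell-associated antigen by these cells, was at 0.89, 1.12 and 1.01 TPM in LIGHT tumours, against 0.42, 0.41 and 0.42 TPM in control tumours. It had the tightest control values of the 10 genes, and its mean was 2.42-fold higher. The difference on the log2 scale was 0.50 (SE 0.06), at a limma adjusted p of 0.0067, and the call held when any 1 library was left out but was lost with the skeletal muscle covariate (0.0734). Wdfy4 (chromosome 14, 32959547 to 33193855) is also expressed in B cells. Of 8 B cell markers, 0 passed the filter, and their summed level was 1.77 to 2.33 TPM in LIGHT and 0.46 to 1.24 TPM in control tumours, with Ms4a1, Pax5 and Cr2 under 0.1 TPM in every library. Cd79b, a chain of the B cell receptor complex chosen for mention after its values were seen, was called higher on all genes above 0, at 1.18 TPM in LIGHT and 0.183 TPM in control tumours. It was the only 1 of the 8 called there. Cd79a, another chain of that complex, was at 0.233 TPM in LIGHT and 0.327 TPM in control tumours and was not called. The part of B cells in the Wdfy4 values was not tested.

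Xcr1, the receptor for the chemokine Xcl1, was at 0.64, 0.81 and 0.40 TPM in LIGHT tumours, against 0.18, 0.27 and 0.24 TPM in control tumours. The groups were separate, with LIGHT replicate 3 closest to the control values. The mean was 2.68-fold higher, and limma gave a difference of 0.39 on the log2 scale (SE 0.10) at an adjusted p of 0.0415. The Xcr1 call (chromosome 9, 123852315 to 123862029) was the weakest of the 5: it was lost without LIGHT replicate 1 or 2 or any control library (adjusted p from 0.0974 to 0.129). It was also lost after trimmed-mean scaling (0.0615) or quantile normalization (0.123), without the trend (0.0575) and with the replicate block (0.0602). The same held with the skeletal muscle (0.29) or haemoglobin covariate (0.173).

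Batf3, the transcription factor that type 1 cells need to develop, did not separate the groups. Batf3 (chromosome 1, 191098414 to 191108943) was at 2.33, 6.33 and 6.10 TPM in LIGHT tumours, against 2.78, 2.96 and 1.98 TPM in control tumours. LIGHT replicate 1 lay within the control range, while the other two LIGHT libraries were above every control library. The difference on the log2 scale was 0.65 (SE 0.30), at a limma adjusted p of 0.157. Without LIGHT replicate 1 it was 1.02 and passed the threshold (adjusted p = 0.0096). In LIGHT replicate 1, Clec9a, Xcr1 and Wdfy4 were above all control libraries. Batf3 is also expressed in activated T cells. The 9 matched T and natural killer cell markers summed to 195 to 250 TPM in LIGHT and 50.0 to 122 TPM in control tumours. Among the 8 tested, 7 were called higher, beside 17.7% of all genes tested. Ncr1, among those 7, passed the filter through the LIGHT libraries alone. In LIGHT replicates 1, 2 and 3 the marker sums were 249.9, 222.1 and 194.9 TPM. The part of T and natural killer cells in the Batf3 values was not tested.

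The type 2, plasmacytoid and mature markers did not pass the threshold in either direction. Cd209a, a mouse homologue of the lectin DC-SIGN found on type 2 and some monocyte-derived cells, was at 0.19, 1.10 and 0.91 TPM in LIGHT tumours, against 0.31, 0.29 and 0.06 TPM in control tumours. As with Batf3, LIGHT replicate 1 was within the control range and the other two were above it. The difference on the log2 scale was 0.47 (SE 0.21), at a limma adjusted p of 0.192, and 0.72 without LIGHT replicate 1 (adjusted p = 0.0335). Cd209a (chromosome 8, 3743395 to 3748984) has close paralogs that can share reads; the most abundant, Cd209c, was lower in LIGHT tumours, at 5.26 ± 0.172 TPM against 9.25 ± 1.69 TPM in control tumours (SD, n = 3 each; log2 fold change -0.70, limma adjusted p = 0.0119).

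Siglech, a surface lectin of plasmacytoid cells (chromosome 7, 55768154 to 55779448), was at 0.61, 1.01 and 0.54 TPM in LIGHT tumours, against 0.23, 0.86 and 0.92 TPM in control tumours. Control replicate 1 was the lowest of all 6 and the other two control libraries sat among the LIGHT values. The difference on the log2 scale was 0.06 (SE 0.19), at a limma adjusted p of 0.862. Its sign was negative under quantile normalization (-0.13) and with the haemoglobin covariate (-0.12), among others. Over 15 other settings the difference ran from -0.15 to 0.21. Fscn1, the actin-bundling protein fascin that mature dendritic cells use to form their processes, was at 77.52, 64.5 and 71.6 TPM in LIGHT tumours, against 94.73, 65.22 and 62.47 TPM in control tumours. The groups overlapped fully, with control replicate 1 the highest. The difference on the log2 scale was -0.04 (SE 0.16), at a limma adjusted p of 0.897. Fscn1 (chromosome 5, 142960355 to 142973189) is also expressed by carcinoma, stromal and endothelial cells. In whole tissue their parts of its level cannot be told apart.

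By level, the order in LIGHT tumours was Fscn1 (71.2 TPM), Itgax (36.7 TPM) and Batf3 (4.92 TPM), followed by 7 genes between 0.617 TPM (Xcr1) and 1.11 TPM (Flt3). In control tumours the same 3 genes led, at 74.1, 17.8 and 2.57 TPM. Fscn1 and Itgax were separate in every library, and so were Itgax and Batf3. The 7 low genes overlapped their neighbours in the LIGHT libraries. LIGHT replicate 2 held the highest LIGHT value for 7 of the 10 genes. LIGHT replicate 1 held the highest for the other 3, Itgax, Zbtb46 and Fscn1. Summed over Xcr1, Clec9a and Wdfy4, the level was 2.27, 2.78 and 2.01 TPM in LIGHT and 0.76, 0.99 and 0.87 TPM in control tumours.

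Set against Ptprc within each library, most of the separation between groups was lost; Ptprc itself was 1.87-fold higher in LIGHT tumours (log2 fold change 0.86, limma adjusted p = 0.00572). Itgax was at 140.1, 147.5 and 140.4% of Ptprc in LIGHT and 146.0, 99.2 and 149.7% in control tumours, and the groups overlapped. Clec9a was the only gene of the 10 above control in this ratio, at 2.62, 3.40 and 2.50% of Ptprc in LIGHT and 1.40, 1.88 and 1.55% in control tumours. An exact two-sided permutation test of that ratio gave p = 0.1, the smallest that 20 assignments allow, as for every gene whose groups did not overlap. Xcr1 was at 2.26, 3.24 and 1.67% of Ptprc in LIGHT and 1.57, 1.64 and 1.78% in control tumours, with LIGHT replicate 3 among the control values. Flt3, Wdfy4, Zbtb46, Batf3, Cd209a and Siglech also overlapped. Fscn1 was lower relative to Ptprc, at 274.1, 257.7 and 298.5% in LIGHT and 826.6, 396.2 and 462.4% in control tumours.

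The result depends on the pseudocount, because adding 1 TPM flattens genes under 1 TPM but not Ptprc. On log2(TPM + 1), 0 of the 10 genes lay above control relative to Ptprc and 5 lay below: Xcr1, Clec9a, Zbtb46, Siglech and Fscn1. With the TPM as deposited, a comparison added after the data were seen, 1 lay above and 1 below. Clec9a changed side between these scales, with a log2 difference of -0.37 with the pseudocount and 0.81 without it, while Fscn1 kept -0.90 and -0.95. Relative to the mean of 15 macrophage and monocyte markers on log2(TPM + 1), Itgax was above control (log2 difference 0.52) and Fscn1 and Siglech below (-0.53 and -0.43; exact permutation p = 0.1 each). Against the summed TPM of that list, with no pseudocount, the Itgax groups overlapped (0.17). The macrophage and monocyte list summed to 1454 to 1932 TPM in LIGHT and 864 to 975 TPM in control tumours. Of its 14 tested genes, 7 were called higher, Lyz2 and C1qa among them, beside 17.7% of all genes tested. Cd14, Mrc1 and Itgam, also in the list, did not rise (log2 fold changes -0.25, -0.13 and -0.02, none called). The part of macrophages and monocytes in the Itgax values was not tested.

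**Figure D3:**
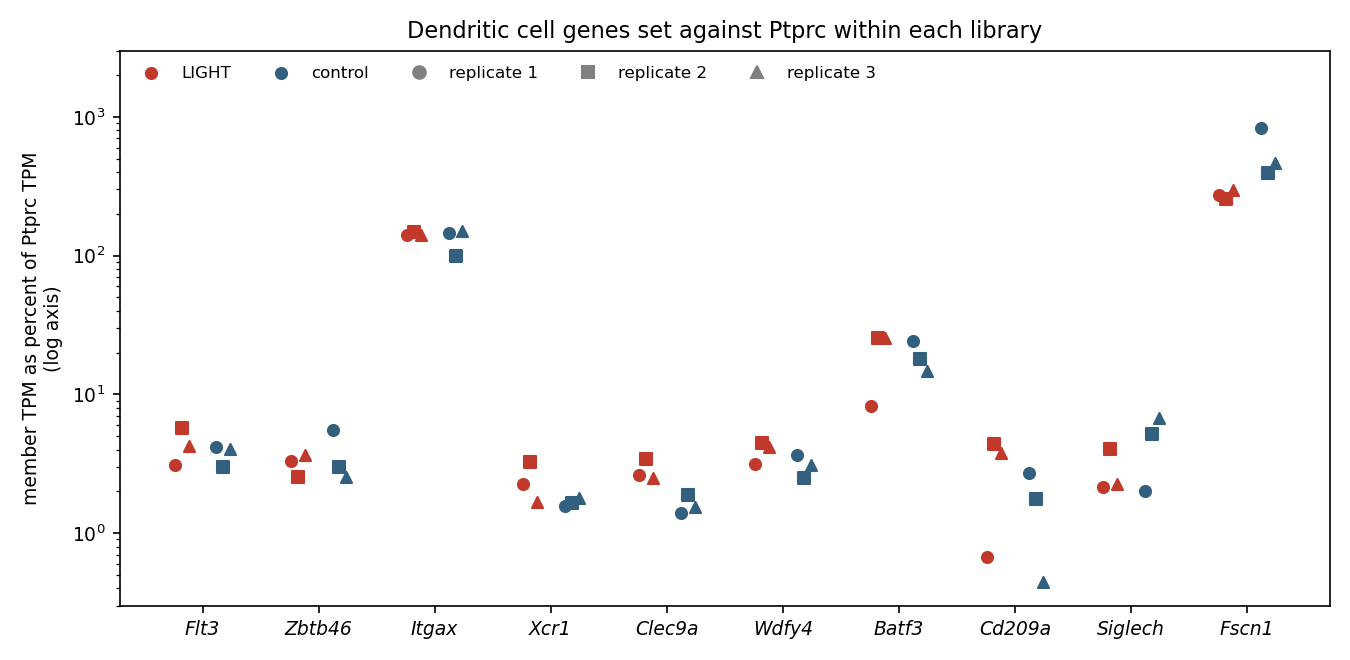
TPM of each dendritic cell gene as a percentage of the Ptprc TPM in the same library, on a log axis, LIGHT left of control for each gene. Clec9a (2.50 to 3.40% in LIGHT, 1.40 to 1.88% in control libraries) and Fscn1 separate in opposite directions; the other 8 overlap.

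Genes that accompany the 10 were described from 6 lists chosen with earlier results of these data known, and 4 of the lists are subset or maturation lists. Of 14 further type 1 associated genes, 12 passed the filter and 8 of them were called higher and 0 lower; on all genes above 0 it was 7 of 14, beside 12.1% of all genes. Irf8, the interferon regulatory factor that type 1 cells depend on, averaged 62.5 ± 9.37 TPM in LIGHT and 35.9 ± 8.34 TPM in control tumours (SD, n = 3 each; log2 fold change 0.80, limma adjusted p = 0.0171). Tlr3, a sensor of double-stranded RNA, was at 16.4 ± 4.98 TPM in LIGHT and 5.91 ± 1.15 TPM in control tumours (1.31, limma adjusted p = 0.00586). Itgae, the integrin CD103 that is also on tissue T cells, averaged 4.61 TPM in LIGHT and 1.09 TPM in control tumours. Id2 and Ppt1 rose by 0.70 and 0.69 on the log2 scale. Cadm1, Rab7b, Snx22 and Cd24a were tested and not called (log2 fold changes 0.11, 0.12, 0.13 and -0.26). The part of other cells in the values of this list was not tested. Cd8a in this list is mainly a T cell gene in tumours. The count of 8 became 4 without LIGHT replicate 2 and 3 without control replicate 3, and 5, 5 and 4 with trimmed-mean scaling, the skeletal muscle covariate and the haemoglobin covariate.

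Of 11 further type 2 associated genes, 4 of the 10 tested were called higher and 0 lower, and 4 of 11 on all genes above 0. The shares of all genes called higher in those fits were 17.7% and 12.1%. The 4 became 0 with the skeletal muscle covariate, 2 with the haemoglobin covariate and 1 with a filter at 5 TPM, and 1 gene was lower under either other scaling. Mgl2, a lectin of type 2 cells and some macrophages, was at 3.11, 8.65 and 6.26 TPM in LIGHT and 1.66, 1.02 and 1.5 TPM in control tumours (log2 fold change 1.47, limma adjusted p = 0.0122). Like Cd209a and Batf3 it was lowest in LIGHT replicate 1 among the LIGHT libraries, but still above all control libraries. Irf4, the regulatory factor of type 2 cells and of activated lymphocytes, averaged 1.88 ± 0.102 TPM in LIGHT and 0.683 ± 0.255 TPM in control tumours (0.79, limma adjusted p = 0.00885). All control values of Irf4 were under 1 TPM, so the LIGHT libraries alone took it past the filter. Sirpa and Cd1d1 rose by 0.60 and 0.87 on the log2 scale, and Cd300a was at 3.95 TPM in LIGHT and 2.44 TPM in control tumours (limma adjusted p = 0.0533). The log2 fold changes of Klf4 and Notch2, in the same list, were negative (-0.25 and -0.19), and neither was called.

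Of the 15 genes of the plasmacytoid list, 4 were called higher and 0 lower on all genes above 0, and 4 of the 11 tested with the filter. The shares of all genes called higher in those fits were 12.1% and 17.7%. With trimmed-mean scaling or either covariate the count with the filter was 2 each. Most of the genes that moved are also expressed by other cells. Bst2 and Irf7, both also interferon-induced in most cells, averaged 520.4 and 303.8 TPM in LIGHT and 256.6 and 178.8 TPM in control tumours (log2 fold changes 1.03 and 0.75, limma adjusted p = 0.00513 and 0.0218). Spib, an ETS factor of B cells, plasmacytoid cells and microfold cells, was at 14.1 ± 2.38 TPM in LIGHT and 0.687 ± 0.0929 TPM in control tumours (log2 fold change 3.16, limma adjusted p = 7.03e-05), and it too passed the filter through the LIGHT libraries alone. Pacsin1, called on all genes above 0 and named after its values were seen, was at 0.513 TPM in LIGHT and 0.237 TPM in control tumours. Cox6a2 is also a muscle gene; it averaged 347.5 TPM in LIGHT and 170.6 TPM in control tumours, while 10 skeletal muscle genes summed to 3697 to 6120 TPM in LIGHT and 2474 to 4458 TPM in control tumours. Its call was lost on all genes above 0 (adjusted p = 0.0703). Tcf4, the factor that maintains plasmacytoid identity and is also broadly expressed in stroma, was at 8.12 ± 0.830 TPM in LIGHT and 7.72 ± 1.17 TPM in control tumours (log2 fold change 0.07, limma adjusted p = 0.740). Tlr9 was at 1.82 TPM in LIGHT and 0.743 TPM in control tumours, short of the threshold (limma adjusted p = 0.0595).

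Of 24 maturation genes, 15 were called higher and 0 lower on all genes above 0, and 15 of the 20 tested with the filter (12 to 15 without any 1 library). The shares of all genes called higher in those fits were 12.1% and 17.7%. With the skeletal muscle covariate 7 were called higher, and with the haemoglobin covariate 10. The sum of 8 epithelial markers was lower, at 19129 to 26977 TPM in LIGHT and 27125 to 31661 TPM in control tumours. One of the 8, Krt6a, was called lower and 0 higher, beside 5.41% and 17.7% of all genes tested. Krt17, Cdh1 and Krt5 did not fall (log2 fold changes 0.46, 0.11 and 0.01). The part of epithelial content in the dendritic cell gene values was not tested. Ccl22, a chemokine made by mature dendritic cells and macrophages, was at 10.86, 12.79 and 14.77 TPM in LIGHT and 1.66, 2.01 and 2.01 TPM in control tumours (log2 fold change 2.25, limma adjusted p = 0.000283). Ccr7, the homing receptor that mature dendritic cells share with naive T cells, was at 3.91, 3.85 and 4.6 TPM in LIGHT and 1.19, 1.78 and 1.66 TPM in control tumours (1.01, limma adjusted p = 0.00319). The groups were separate for both. The costimulatory receptor Cd40 rose by 0.90, Relb, a noncanonical NF-kB subunit, by 1.09 and Cacnb3 by 0.75 on the log2 scale. Cd274, the checkpoint ligand PD-L1, averaged 94.7 ± 29.9 TPM in LIGHT and 97.5 ± 5.67 TPM in control tumours (-0.09, limma adjusted p = 0.788). Lamp3, used as a marker of mature dendritic cells in human tumours, was under 0.1 TPM in every library.

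Of 12 genes shared by dendritic cells and other antigen-presenting or blood cells, 9 were called higher and 0 lower on all genes above 0. The shares of all genes called higher were 12.1% in that fit and 17.7% with the filter. With the filter 9 of 11 were called, with 5 under the skeletal muscle covariate, 4 under the haemoglobin covariate and 5 at a filter of 5 TPM, and 1 was lower under either other scaling. Cd74, the invariant chain of MHC class II, averaged 3195.4 ± 383.6 TPM in LIGHT and 1210.4 ± 88.8 TPM in control tumours (log2 fold change 1.40, limma adjusted p = 0.000748). Ciita, the class II transactivator, rose by 1.53, Slamf7 by 1.01, Dpp4 by 0.95 and Spi1, which encodes PU.1, by 0.88 on the log2 scale. Bcl11a, in the same list, went the other way without being called. It averaged 32.9 TPM in LIGHT and 45.0 TPM in control tumours (log2 fold change -0.43, limma adjusted p = 0.0635). Dpp4 and Cbfa2t3 were under 1 TPM in the control libraries and passed the filter through the LIGHT libraries alone.

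**Figure D4:**
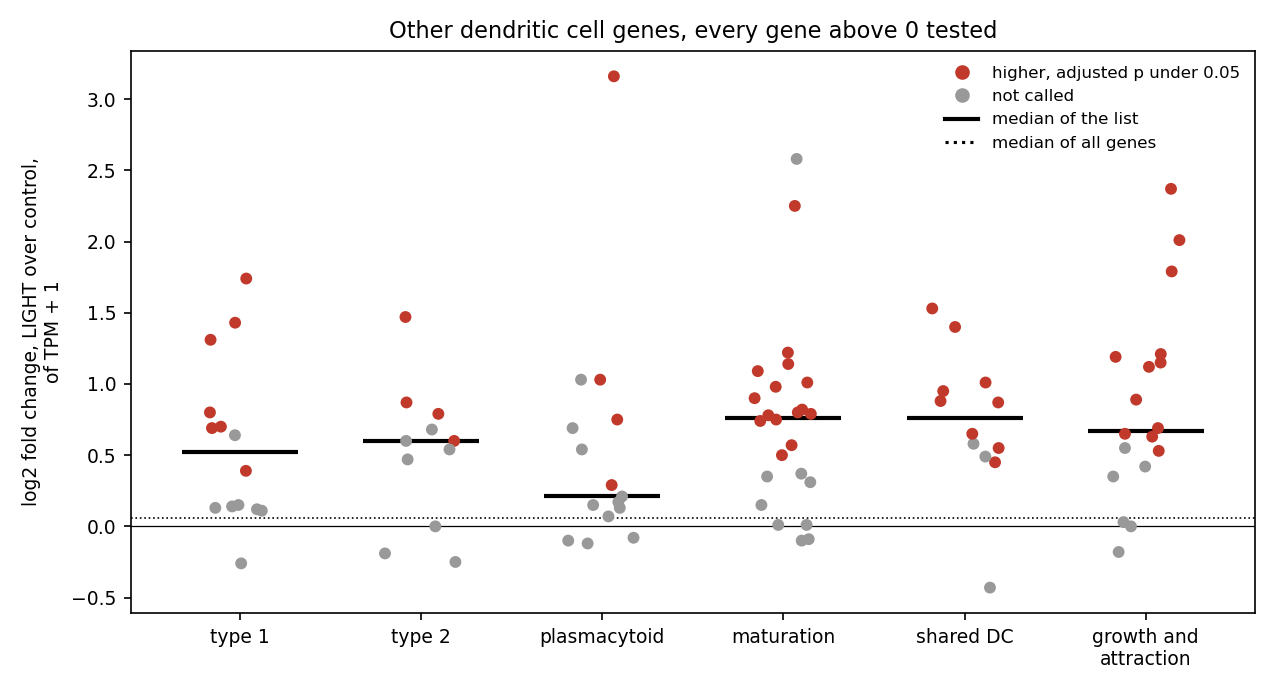
Log2 fold change of TPM + 1, LIGHT over control, of every gene of the 6 accompanying lists above 0 in any library, with the median of each list and of all genes (dotted, 0.06). The list medians run from 0.21 (plasmacytoid) to 0.76 (maturation and shared genes).

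The ligands of 2 of the receptors rose along with them. Flt3l was at 66.06, 49.46 and 48.29 TPM in LIGHT and 22.23, 28.93 and 19.01 TPM in control tumours, a difference of 1.19 on the log2 scale (SE 0.18) at a limma adjusted p of 0.00455. Xcl1, a chemokine of natural killer and CD8 T cells that binds Xcr1, was at 21.42, 22.53 and 13.52 TPM in LIGHT and 3.81, 3.62 and 7.34 TPM in control tumours (1.79, SE 0.27, limma adjusted p = 0.00489). The groups overlapped for neither ligand. Ligand and receptor did not keep one order across libraries: LIGHT replicate 3 was the lowest LIGHT library for both Xcl1 and Xcr1, but LIGHT replicate 1 was the highest for Flt3l and the lowest for Flt3. In the full list of 18 growth factors, chemokines and their receptors, 12 were called higher and 0 lower with and without the filter. The shares of all genes called higher were 17.7% and 12.1%. With the skeletal muscle covariate 7 of the list were called higher. The CXCR3 ligands Cxcl9 and Cxcl10 rose by 2.37 and 2.01 on the log2 scale, Cxcl16 by 1.15, Ccl21a, whose near-identical copies can share its reads, by 1.12 and Csf2ra, a chain of the GM-CSF receptor, by 0.89. Among the genes of the list not called were Ccl3 (-0.18), Ccl4 (-0.0), Ccl5 (0.42) and Csf2 (0.03).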

How the data were processed

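RNA from whole tongue tumours was measured in 3 LIGHT and 3 control libraries. The deposited values are TPM per gene with 2 decimals, 1 column per library per the file headers. HISAT, Bowtie2 and the build GRCm38.p6 are listed in the submitters' processing notes without a role. The sources used here give no quantifier, annotation, strand setting or read depth, so no counting interval can be given. The labels tie no library to an animal, so p-values reflect only how far these samples spread, which may be technical. No age of the mice is given in the labels.

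The filter asked for 1 TPM in 3 or more libraries, which 13167 genes met. Limma 3.58.1 (R 4.3.3) was run on their log2(TPM + 1) values, using lmFit and eBayes with a trend. Tests were two-sided and Benjamini-Hochberg adjusted over all genes tested, at 0.05. Adding 1 TPM understates the change of low genes. The same fit on all 18218 genes above 0 served the 7 genes under the filter, and its combinations with other settings were added after seeing the data. Ratios within a library had an exact permutation test. Limma with the filter was checked on simulated data, with changes placed only in genes well above the filter. That check does not cover the fit on all genes above 0 or the 7 genes under the filter.

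The 10 genes and all lists were chosen with earlier results of these data known. The genes named are the 10, Tnfsf14 and Ptprc, up to 5 tested genes of each of 6 dendritic cell lists by smallest unadjusted p, and Flt3l, Xcl1, Irf8, Irf4, Tcf4, Ccr7 and Cd274. Other genes named, from these or other marker lists, as paralogs or as overlapping genes, were chosen after their values were seen. Alternatives were pseudocounts of 0.1 and 0.5, no filter, a filter at 5 TPM, trimmed-mean factors, quantile normalization, a replicate block, skeletal muscle or haemoglobin covariates, no trend, robust estimation and each library left out. Figures were drawn with matplotlib 3.10.9.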

Additional observations from a re-analysis of the deposited data

How the results depend on the processing

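Itgax was called higher in the 17 settings that changed 1 choice, with a log2 fold change of 0.88 to 1.10, but not on all genes above 0 with the skeletal muscle covariate. Of the 10 genes, 1 was called higher with the filter and 5 with no filter. On all genes above 0 the 5 became 3 with trimmed-mean factors, 3 with quantile normalization, 0 with the skeletal muscle covariate and 2 with the haemoglobin covariate, and 2 to 6 without 1 library. With the filter, 1 to 2 of the 10 were called without 1 library.

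Relative to Ptprc, 0 genes lay above and 5 below control. With a pseudocount of 0.1 it was 1 above and 1 below, with 0.5 3 below, and with no pseudocount 1 above and 1 below. Relative to the macrophage and monocyte list, 1 lay above and 2 below. With a pseudocount of 0.1 it was 5 above and 1 below, with 0.5 3 above and 1 below, and with no pseudocount and the summed TPM of the list in place of its mean log value, which changes both choices, 2 above and 1 below. Without 1 library it was 1 to 2 above and 2 to 4 below.

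With a filter at 5 TPM, 1 type 2 gene and 5 shared dendritic genes were called higher. Trimmed-mean factors gave 5 type 1 and 2 plasmacytoid genes higher, and 1 type 2 gene, 1 shared gene and 2005 genes in all lower. Quantile normalization gave 1 type 2 and 1 shared gene lower, with 1410 genes in all higher and 1813 lower. The skeletal muscle covariate left 5 type 1, 0 type 2, 2 plasmacytoid, 7 maturation, 5 shared and 7 growth and attraction genes higher, with 681 genes in all higher and 101 lower. The haemoglobin covariate left 4 type 1, 2 type 2, 2 plasmacytoid and 4 shared genes higher, with 976 in all higher and 207 lower. Without 1 library, type 1 genes called higher numbered 3 to 7, and all genes 1264 to 2027 higher and 325 to 791 lower. Where a cause is not built into the alternative, the cause was not tested.

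Replicate numbers were not taken as pairs, since the labels name no pairing. Deviations of same-numbered libraries correlated at 0.37, 0.237 and 0.01, which does not settle whether libraries were paired. With the replicate block 3 of the 10 genes on all genes above 0 and 2 plasmacytoid genes were called higher, and 907 genes in all lower. LIGHT replicate 2 correlated best with control replicate 3 (0.332).

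Depth is unknown. Of the 10 genes, 7 lay near or under 1 TPM, where rounding to 2 decimals is a visible share of the value. With 3 libraries a group, exact tests cannot go below 0.1.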

Other observations

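LIGHT replicate 1 was the lowest LIGHT library for several genes of type 2 cells and of dendritic cell chemokines, a pattern picked out after the values were seen. Clec10a, a lectin of type 2 cells and macrophages, was at 1.82, 7.93 and 2.93 TPM in the LIGHT libraries, against 0.98, 2.65 and 2.35 TPM in the control libraries. Ccl17, a ligand of Ccr4, was at 10.4, 27.76 and 29.68 TPM in the LIGHT libraries, against 3.55, 0.31 and 6.84 TPM in the control libraries. Among the LIGHT libraries, Batf3, Cd209a and Mgl2 were lowest in the same library. Other genes of the type 2 list went the other way: Cd300a (4.26 TPM) and Notch2 (15.43 TPM) were highest in LIGHT replicate 1. It was also the highest LIGHT library for Tlr3 (22.07 TPM), Cxcl9 (1481 TPM) and Ciita (18.55 TPM). Il12b, a subunit of interleukin-12 that type 1 and other mature cells make, was at 0.96, 0.59 and 0.62 TPM in LIGHT and 0.20, 0.25 and 0.19 TPM in control tumours, and was called higher on all genes above 0 (log2 fold change 0.50, limma adjusted p = 0.0157).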
